A study of Mus musculus with 40 samples.

Results

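Eda2r and 9 target genes of the transcription factor p53 (Cdkn1a, Mdm2, Ccng1, Phlda3, Trp53inp1, Bax, Sesn2, Gdf15 and Zmat3) were followed in the kidney cortex of diabetic and non-diabetic mice. The 10 genes were chosen by symbol from the 55401 genes of the count table, with earlier results of these libraries known, and each symbol matched 1 gene. RNA was sequenced from 40 male mice on the C57BL/6J background, with 5 mice in each of 8 groups. Akita mice are heterozygous for Ins2-Akita, a mutated insulin gene, and develop diabetes from loss of insulin, and the WT mice were their littermates. From 6 to 22 weeks of age, mice of both genotypes were gavaged with the ethanol vehicle (10% ethanol in water), MitoGamide at 10 mg/kg in that vehicle, water, or MitoQ in water. MitoGamide is a mitochondria-targeted scavenger of reactive dicarbonyls such as methylglyoxal and MitoQ is a mitochondria-targeted antioxidant, for which the labels give no dose. The labels give 1 animal per library, with no pooling, and the insulin mutation is carried in all cells of the Akita mice.

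p53 is held at a low level by MDM2, which marks it for degradation, and it accumulates after DNA damage and other stress. It then switches on genes that stop the cell cycle, repair DNA, buffer oxidants or start cell death, as well as Mdm2 itself, which closes a feedback loop. EDA2R is a receptor of the TNF receptor family that binds the A2 form of ectodysplasin (the product of Eda), signals to NF-κB and JNK, and is itself a p53 target. In the kidney, CDKN1A (p21) is induced in tubule cells by ischaemic and toxic injury and stops them from dividing.

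The genes lie on 9 chromosomes of the GRCm38 genome, all are protein-coding, and their positions are from GENCODE mouse release 21. Eda2r (ENSMUSG00000034457.10) is at chrX:97333840-97377216 on the minus strand, and Cdkn1a (ENSMUSG00000023067.14) is at chr17:29090976-29100727 on the plus strand. Mdm2 is at chr10:117688875-117710758, Ccng1 at chr11:40748552-40755311, Bax at chr7:45461697-45466898, Gdf15 at chr8:70629393-70632456, Zmat3 at chr3:32334792-32366014 and Sesn2 at chr4:132492032-132510501, all on the minus strand. Phlda3 is at chr1:135766119-135769136 and Trp53inp1 at chr4:11156431-11174379, both on the plus strand. Bax shares its position with the gene model Gm45808 on the same strand, Sesn2 with Gm12981 on the same strand, and Cdkn1a with AC167363.2 on the opposite strand, so that reads of these 3 genes may have been divided between both models.

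p53 binds a response element made of a pair of decamers, and the promoters were searched for it. RefSeq promoter windows (250 bases before to 50 bases after the gene's start, GRCm38.p6) were found for 8 of the 10 genes. The windows of Eda2r and Cdkn1a are shown because these genes had the largest differences between Akita and WT mice over the 4 treatments. The window of Eda2r is chrX:97377160-97377459 (minus strand) and that of the upstream start of Cdkn1a is chr17:29090729-29091028 (plus strand), with matches to the p53 decamer consensus in capitals.
Eda2r: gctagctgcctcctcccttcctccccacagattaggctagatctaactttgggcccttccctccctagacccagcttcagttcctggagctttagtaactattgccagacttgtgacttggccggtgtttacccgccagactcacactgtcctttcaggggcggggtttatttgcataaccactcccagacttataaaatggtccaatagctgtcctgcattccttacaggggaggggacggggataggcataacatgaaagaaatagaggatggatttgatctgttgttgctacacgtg
Cdkn1a: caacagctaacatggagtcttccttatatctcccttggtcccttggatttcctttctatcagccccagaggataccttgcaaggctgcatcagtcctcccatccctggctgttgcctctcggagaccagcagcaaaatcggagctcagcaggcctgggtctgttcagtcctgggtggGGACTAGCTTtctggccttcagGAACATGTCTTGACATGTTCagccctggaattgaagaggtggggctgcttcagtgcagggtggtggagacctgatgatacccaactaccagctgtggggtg
The upstream Cdkn1a window held a 10-base match to the p53 decamer consensus, starting 73 bases before the gene's start. It also held a 20-base pair of adjoining decamers with 1 mismatch allowed, starting 51 bases before that start. Both strands were searched. Of the 32851 windows in the table, 8.36% held a decamer match and 0.0548% held such an adjoining pair. A single decamer was found in the windows of Mdm2 (186 bases before the start), Ccng1 (185 bases) and Bax (201 bases), shown here for comparison with that of Cdkn1a.
Cdkn1a: GGACTAGCTT
Cdkn1a pair: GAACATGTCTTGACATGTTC
Mdm2: GAACTTGCCT
Ccng1: GGGCAAGCCT
Bax: AGGCAAGCTT
No match lay in the windows of Eda2r, Phlda3, Sesn2 and Gdf15, or in the window of a downstream start of Cdkn1a (chr17:29093519-29093818). This says only that these letters are not within these 300 bases.

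The libraries held between 9106654 and 24321424 estimated counts. In 10 of the 20 libraries of mice on water or MitoQ, and in none of those on ethanol or MitoGamide, the 10 most counted genes took over 40% of the counts, with a highest share of 72.5% in WT mice on MitoQ (replicate 3). Levels are given in CPM (counts per 1000000 counts of a library) after TMM scaling over the 40 libraries. Markers of kidney cortex were abundant in every library, with Slc34a1 of the proximal tubule between 2222 and 4624 CPM and Umod of the thick ascending limb between 499 and 1889 CPM. Of 3 adrenal cortex markers, Cyp11b2 was at 0 in all 40 libraries and Cyp11b1 in 23, whereas Star was at 2.33 to 6.29 CPM. Of 3 adipocyte markers, Adipoq was at 0 in 21 libraries, Cidec in 7 and Plin1 in 1, with highest levels of 1.93, 3.43 and 4.501 CPM.

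Per kilobase of exon, Ccng1 was the most abundant of the genes and Eda2r the least, at 38.8 and 0.105 CPM per kilobase in WT mice on the ethanol vehicle. The other 8 genes lay between 1.34 (Phlda3) and 15.9 (Sesn2) in this group. Eda2r was therefore counted at low depth, with 1 to 14 counts in each WT library and 11 to 68 counts in each Akita library.

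Eda2r was higher in Akita than in WT mice under all 4 treatments. On the ethanol vehicle, the 5 WT mice were at 0.831, 0.570, 0.559, 0.547 and 0.578 CPM and the 5 Akita mice at 3.05, 2.52, 1.76, 3.09 and 3.08 CPM. On MitoGamide, WT mice were at 0.407, 0.646, 0.410, 0.281 and 0.375 CPM and Akita mice at 4.75, 3.71, 2.84, 2.74 and 4.21 CPM. The lowest Akita mouse was above the highest WT mouse in both cases. On water, WT mice were at 0.286, 0.187, 0.177, 0.211 and 0.369 CPM and Akita mice at 2.22, 1.25, 1.65, 1.84 and 1.84 CPM. On MitoQ, WT mice were at 0.234, 0.283, 0.216, 0.646 and 0.151 CPM and Akita mice at 3.41, 1.61, 1.52, 0.974 and 3.72 CPM. All 20 Akita libraries lay above the highest of the 20 WT libraries, and the closest pair was an Akita mouse on MitoQ (0.974 CPM) and a WT mouse on the ethanol vehicle (0.831 CPM). Such a separation of all 20 against all 20 libraries with Akita mice higher held for 0.0788% of the 17769 genes tested, and among the 10 genes for Eda2r alone.

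**Figure D1:**
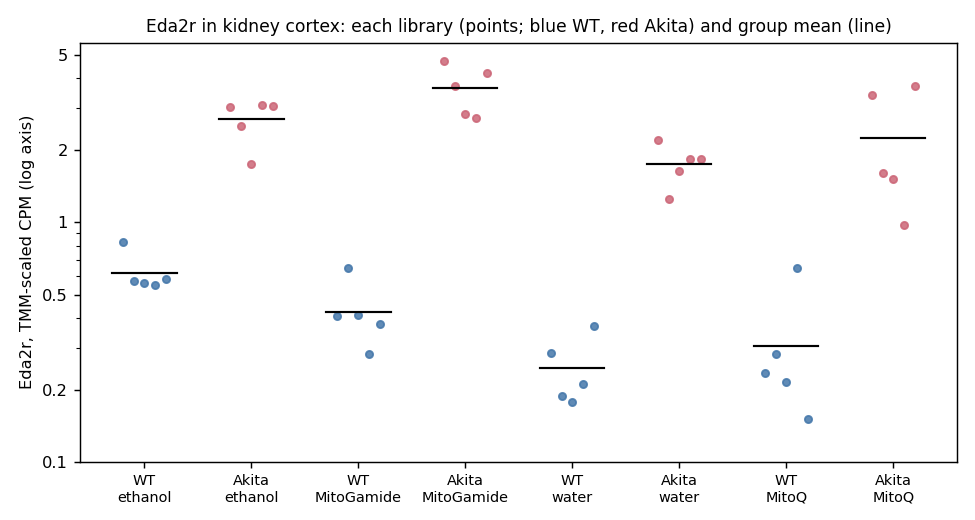
Level of Eda2r in TMM-scaled CPM (log axis) in each of the 40 libraries, by genotype and treatment. Points are single mice (blue, WT; red, Akita) and lines are means of 5; the red points lie between 0.974 and 4.75 CPM and the blue points between 0.151 and 0.831 CPM.

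Ordered by mean, Eda2r was at 3.65 ± 0.869 CPM (SD, n = 5) in Akita mice on MitoGamide, 2.70 ± 0.578 on ethanol, 2.25 ± 1.23 on MitoQ and 1.76 ± 0.351 on water. The WT groups followed in the order ethanol (0.617 ± 0.120), MitoGamide (0.424 ± 0.135), MitoQ (0.306 ± 0.196) and water (0.246 ± 0.0806). The gap between neighbours exceeded the larger SD of both groups between Akita mice on MitoGamide and on ethanol, between the lowest Akita group and the highest WT group, and between WT mice on ethanol and on MitoGamide. The other 4 neighbouring pairs lay within that SD. The ratio of the Akita to the WT mean was 4.38 on ethanol, 8.61 on MitoGamide, 7.15 on water and 7.34 on MitoQ. Because the genes were chosen with such differences between genotypes known, the Akita and WT values are given as a description, without p-values, and the calls counted for them further on support nothing.

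The cell cycle inhibitor Cdkn1a had the next largest difference in the fit over the 4 treatments, though on ethanol that of Phlda3 was larger. On the ethanol vehicle, WT mice were at 5.43, 5.80, 9.02, 5.65 and 4.43 CPM and Akita mice at 9.16, 8.54, 10.1, 16.3 and 7.91 CPM. On MitoGamide, WT mice were at 3.19, 3.14, 2.87, 2.88 and 5.95 CPM and Akita mice at 9.501, 11.4, 9.54, 13.98 and 57.1 CPM. The groups overlapped on ethanol and did not overlap on MitoGamide, where 1 Akita mouse (replicate 5) stood far above the other 4. On water, WT mice were at 5.43, 4.9997, 2.96, 4.33 and 5.72 CPM and Akita mice at 10.7, 4.55, 9.28, 15.1 and 9.87 CPM. On MitoQ, WT mice were at 5.38, 2.54, 3.24, 3.56 and 4.22 CPM and Akita mice at 11.6, 17.2, 12.3, 10.5 and 19.1 CPM. Of the 20 Akita mice, 17 were above the highest WT mouse. The log2 fold change from edgeR was 0.79 (standard error 0.21) on ethanol, 1.09 (0.29) on water, 1.88 (0.24) on MitoQ and 2.47 (0.52) on MitoGamide, where it was 1.62 without replicate 5.

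Phlda3, a small protein that competes with the kinase AKT for membrane lipids, was above the highest WT mouse in 19 of the 20 Akita mice. On the ethanol vehicle, WT mice were at 1.47, 2.33, 2.27, 1.70 and 2.65 CPM and Akita mice at 4.46, 5.09, 5.29, 5.59 and 5.58 CPM. On MitoGamide, WT mice were at 0.950, 1.38, 1.57, 0.983 and 3.61 CPM and Akita mice at 5.18, 7.31, 5.12, 5.89 and 2.48 CPM. The groups overlapped there through replicate 5 of each, and the other 4 Akita mice were all above the 5 WT mice. In the water arm, WT mice ranged from 1.89 to 3.44 CPM and Akita mice from 3.90 to 5.001 on water, and WT mice from 1.08 to 2.18 and Akita mice from 3.61 to 6.17 on MitoQ. The log2 fold change was between 0.77 (standard error 0.22, water) and 1.60 (0.38, MitoGamide).

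Ccng1, which encodes the p53-induced cyclin G1, and Zmat3, an RNA-binding zinc finger protein that regulates splicing, had smaller differences. Ccng1 was at 136 ± 13.2 CPM in WT and 201 ± 16.2 in Akita mice on ethanol, and at 149 ± 14.8 and 258 ± 22.1 on MitoGamide (SD, n = 5), without overlap in either pair. It varied more on water, where WT mice spanned 40.03 to 161 CPM and Akita mice 63.8 to 204 CPM, and the genotypes overlapped there and on MitoQ. Zmat3 was at 29.9 ± 1.54 CPM in WT and 46.4 ± 4.29 in Akita mice on ethanol, 29.2 ± 1.99 and 42.8 ± 4.998 on MitoGamide, 24.1 ± 6.31 and 37.4 ± 10.2 on water, and 26.97 ± 6.14 and 44.7 ± 6.48 on MitoQ. Its log2 fold change was 0.65, 0.59, 0.63 and 0.72 in these 4 pairs. In the water arm, libraries dominated by 10 genes had the lowest Ccng1 values of both genotypes on water, at 40.03 CPM in WT replicate 3 and 63.8 CPM in Akita replicate 2, and the part of this dominance in the spread was not tested.

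Trp53inp1, a nuclear cofactor of p53 that also acts in autophagy, was at 43.7 ± 4.46 CPM in WT and 61.6 ± 5.56 in Akita mice on ethanol, without overlap (SD, n = 5). On MitoGamide, the Akita mice were at 68.1, 69.5, 61.1, 55.4 and 351 CPM and the WT mice at 45.3, 38.7, 46.6, 36.9 and 56.8 CPM. The log2 fold change of 1.44 (standard error 0.47) on MitoGamide became 0.53 without replicate 5. On water and MitoQ it was 0.34 (0.29) and 0.48 (0.15), and the genotypes overlapped in both.

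Gdf15, a secreted stress cytokine of the TGF-β family, was higher on average in Akita mice under all 4 treatments. Its mean was 3.38 ± 1.16 CPM in WT and 4.60 ± 0.616 in Akita mice on ethanol, 3.45 ± 0.397 and 6.28 ± 1.68 on water, and 3.05 ± 0.667 and 7.23 ± 2.54 on MitoQ (SD, n = 5). On MitoGamide, the 5 Akita mice were at 3.31, 6.22, 2.73, 10.6 and 2.48 CPM and the WT mice between 1.90 and 3.23 CPM. Both genotypes overlapped under every treatment, and 12 of the 20 Akita mice were above the highest WT mouse of all 4 treatments.

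Mdm2, the ubiquitin ligase that restrains p53, differed little between genotypes. On ethanol, WT mice were at 30.9, 29.2, 29.5, 30.6 and 31.0 CPM and Akita mice at 31.8, 33.1, 30.2, 32.4 and 34.8 CPM. On MitoGamide, WT mice were at 33.6, 30.4, 29.1, 27.9 and 32.1 CPM and Akita mice at 34.0, 40.9, 36.5, 36.2 and 49.6 CPM, without overlap. The log2 fold change was 0.12 (standard error 0.06) on ethanol and 0.39 (0.10) on MitoGamide, with 0.34 (0.16) on water and 0.32 (0.13) on MitoQ between them.

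Bax, which permeabilizes the outer mitochondrial membrane in apoptosis, and Sesn2, a stress-induced inhibitor of mTORC1, showed the least separation. Bax was at 12.1 ± 1.24 CPM in WT and 13.9 ± 1.19 in Akita mice on ethanol (SD, n = 5), and its log2 fold change lay between 0.07 and 0.22 over the 4 treatments. Sesn2 was the single gene of the 10 with a lower mean in Akita mice under all 4 treatments, with log2 fold changes of -0.44, -0.11, -0.37 and -0.35 on ethanol, MitoGamide, water and MitoQ. On ethanol, WT mice were at 48.9, 45.8, 99.2, 46.1 and 36.0 CPM and Akita mice at 34.1, 36.0, 57.1, 41.0 and 33.8 CPM. The differences in means on ethanol and water rested largely on a single WT mouse in each. On ethanol, WT replicate 3 was at 99.2 CPM and the other WT mice at 36.0 to 48.9 CPM, against an Akita mean of 40.4. On water, WT replicate 2 was at 86.7 CPM and the others at 31.2 to 35.7, a range that holds the Akita mean of 34.1. Medians were 46.1 CPM in WT and 36.0 in Akita mice on ethanol, and 34.6 and 28.3 on water. On MitoGamide, Akita mice were at 22.5, 27.3, 28.6, 29.9 and 112 CPM and WT mice between 36.0 and 64.2 CPM. Without replicate 5, all Akita mice on MitoGamide were below all WT mice and the log2 fold change of Sesn2 was -0.79.

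**Figure D2:**
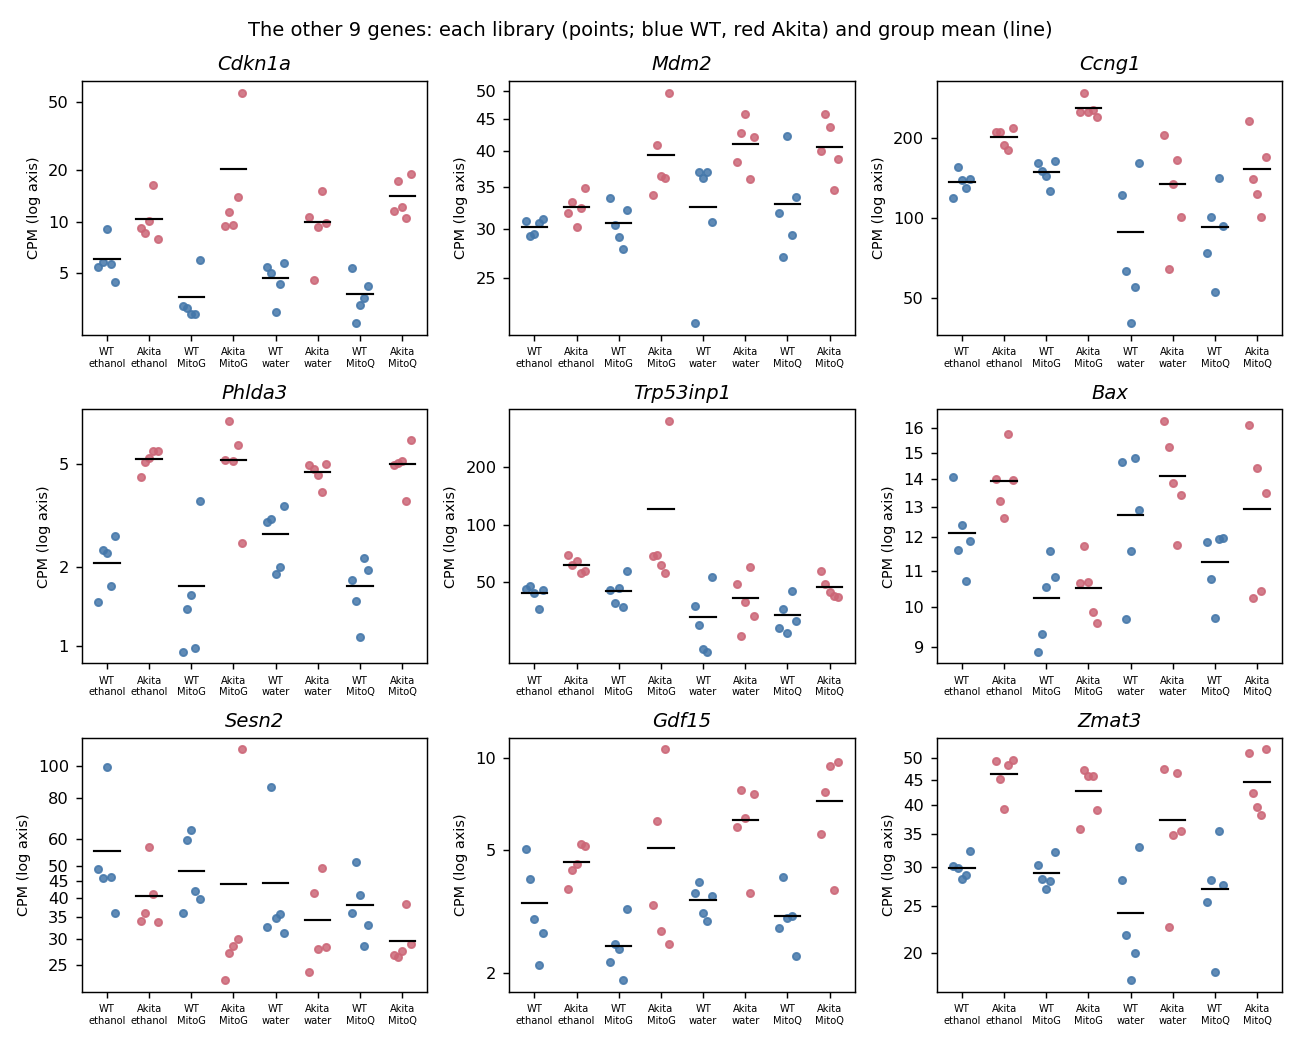
Levels of the other 9 genes in TMM-scaled CPM (log axes, scaled for each gene) in each library, with MitoG for MitoGamide. Points are single mice (blue, WT; red, Akita) and lines are means of 5; 19 of 20 Akita mice lie above the highest WT mouse for Phlda3, 18 for Zmat3, 17 for Cdkn1a, 4 for Bax and 1 for Sesn2, and 1 Akita mouse on MitoGamide lies at 57.1, 351 and 112 CPM for Cdkn1a, Trp53inp1 and Sesn2.

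With edgeR's quasi-likelihood test at an adjusted p under 0.05, 6 of the 10 genes were called on ethanol (Eda2r, Cdkn1a, Phlda3, Ccng1, Zmat3 and Trp53inp1, all higher in Akita mice), where 8.18% of the 17747 genes tested were called higher. On MitoGamide 6 were called (Mdm2 in place of Trp53inp1), against 7.71% of 16674 genes higher, on MitoQ 3 (Eda2r, Cdkn1a and Phlda3), against 0.265% of 18143 genes, and on water Eda2r alone, against 0.186% of 18304 genes. Without the libraries dominated by 10 genes, Eda2r on water had a log2 fold change of 2.58 and lost its call, and Cdkn1a, at 1.196, gained one, with 0.474% of all genes called higher. All 5 Akita mice were above all 5 WT mice for 5 genes on ethanol, where this held for 5.53% of all genes, for 5 on MitoGamide (5.41%), for 4 on MitoQ (1.4%) and for 2 on water (0.94%). In the fit of genotype over the 4 treatments with all 40 libraries, 8 of the 10 were called higher, against 11% of 17769 genes. The median log2 fold change of the 10 genes in that fit was 0.68, against -0.02 for all genes. These counts describe the choice of the genes and nothing is read from them. Leaving out Akita mouse 5 on MitoGamide raised them to 9 on MitoGamide (16.9% of all genes called) and 10 over the 4 treatments (21.5%), where Sesn2 was then lower in Akita mice.

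**Figure D3:**
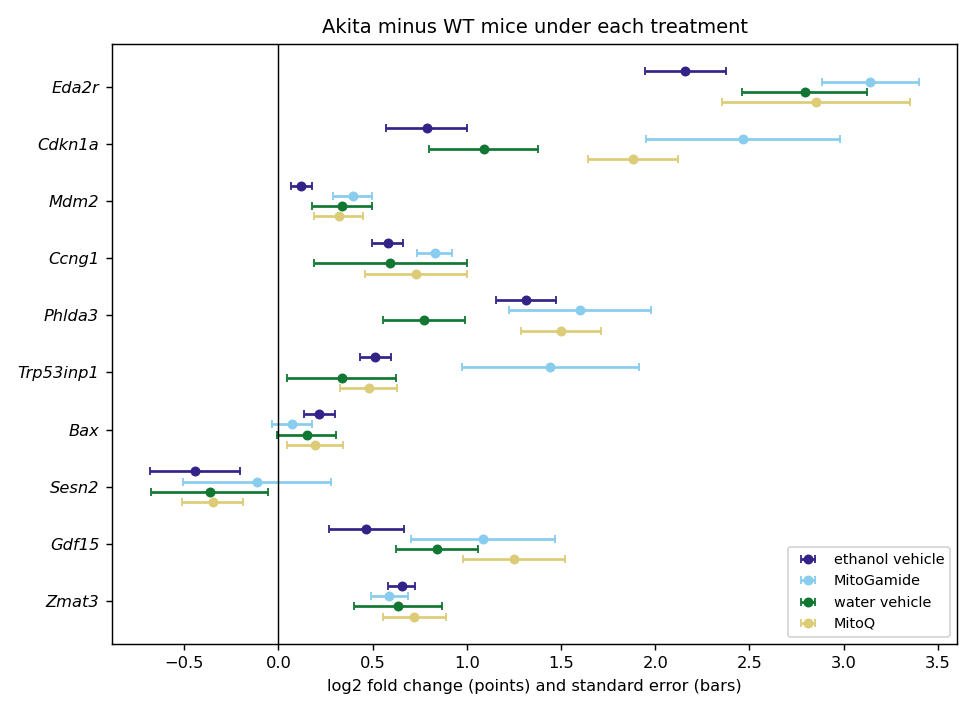
Log2 fold change of Akita against WT mice for each of the 10 genes under 4 treatments, from edgeR (points), with standard errors (bars). Eda2r lies between 2.16 and 3.14 and is the highest of the 10 genes under each treatment, with Sesn2 on the negative side under all 4 treatments. The Sesn2 values on ethanol and water rest largely on a single WT mouse in each, at 99.2 and 86.7 CPM.

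Summed levels of some cell type markers also differed between genotypes under some treatments. By two-sided exact permutation tests, none of the sums and shares passed adjustment over 180 comparisons (lowest adjusted p = 0.110). On the ethanol vehicle, the summed level of 6 proximal tubule markers was 9219.6 to 12362 CPM in Akita and 11964 to 14947 in WT mice, that of 5 collecting duct markers was 187 to 242 and 144 to 198, and that of 5 macrophage markers was 31.6 to 46.7 and 46.2 to 66.4. On MitoGamide, proximal tubule markers were at 8993 to 11068 CPM in Akita and 12628 to 13731 in WT mice, and collecting duct markers at 181 to 292 and 118 to 168, both without overlap. Proximal tubule markers overlapped on water, at 7513 to 11592 CPM in Akita and 7441 to 12742 in WT mice (exact permutation p = 0.405). They overlapped on MitoQ too, at 8047 to 11783 and 7712 to 12881 CPM (exact permutation p = 0.444). Olfactory receptor genes were also without overlap there, at 249 to 445 CPM in Akita and 448 to 748 in WT mice, as was the mitochondrial share of the counts, at 28.0 to 35.4% and 24.6 to 27.8%. Macrophage markers were lower without overlap in Akita mice on water (27.1 to 39.3 against 45.9 to 60.8 CPM) and on MitoQ (24.8 to 36.4 against 39.3 to 61.2 CPM). The 10 most counted genes held 30.8 to 38.0% of the counts in Akita and 28.6 to 31.3% in WT mice on ethanol. Over the 4 treatments, 2 of 6 proximal tubule markers and 2 of 5 macrophage markers were called lower, and 3 of 5 collecting duct markers and 3 of 5 podocyte markers were called higher in Akita mice, where 11.8% of all genes were called lower and 11% higher. In whole cortex, more cells of a type and more RNA per cell cannot be told apart, and the part of these shifts in the levels of the 10 genes was not tested.

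The regulators of p53 had no call in the fit over the 4 treatments (0 of 11 tested from 13 listed). An unadjusted p under 0.05 was found for 1 of the 11, and for 5941 of the 17769 genes tested. Trp53, which encodes p53, was at 15.3 ± 1.68 CPM in WT and 15.8 ± 0.461 in Akita mice on ethanol (SD, n = 5), with a log2 fold change over the 4 treatments of 0.02 (standard error 0.06). Mdm4, the partner of MDM2, had a log2 fold change of -0.17 (0.09). Of 33 other p53 targets tested from 34 listed, 14 were called higher and 0 lower, against 11% and 11.8% of all genes, and the median log2 fold change was 0.23. Ephx1, which encodes microsomal epoxide hydrolase, differed by 1.497 (standard error 0.11) and Plk2, a polo-like kinase, by 0.67 (0.09) on the log2 scale. The list was compiled with results of these data known, so that it is no independent support for the 10 genes.

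The list of EDA signalling holds genes of EDAR, the sister receptor of EDA2R, as well. The ligand gene Eda was at 1.05 ± 0.230 CPM in WT and 1.34 ± 0.252 in Akita mice on ethanol (SD, n = 5). Its log2 fold change over the 4 treatments was 0.44 (standard error 0.13), and counts per gene do not separate its A2 form. The sister receptor Edar was close to the limit of counting, with 0 to 21 counts per library and group means between 0.199 and 0.621 CPM. Edaradd, the adaptor of EDAR, differed by 0.69 (0.14). Of 15 genes tested from this list, 3 were called higher and 2 lower in Akita mice, against 11% and 11.8% of all genes, with a median log2 fold change of 0.04.

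The counts of the other lists stand beside 11% of all genes called higher and 11.8% called lower in the same fit. Among genes of the BCL2 family and caspases, 3 of 13 were higher and 2 lower, with Bak1, the closest relative of Bax in function, at 0.37 (standard error 0.07) and Bok at -0.59 (0.12) on the log2 scale. Among paralogs of the 10 genes, 3 of 12 were higher and 1 lower. Integrated stress response genes had 3 of 11 higher and 0 lower, with Nupr1, a stress-induced chromatin protein, at 0.86 (0.18) and Ppp1r15a, a regulatory subunit of the eIF2α phosphatase, at 0.43 (0.12). Of 11 cell cycle genes, 3 were higher and 0 lower, with Cdc20 at 0.82 (0.24) and the replication helicase subunit Mcm2 at 0.28 (0.08). Among the senescence genes, Glb1, which encodes the enzyme behind senescence-associated galactosidase staining, was lower (-0.26, 0.09). Of 6 tubular injury genes, 4 were higher and 0 lower, with Spp1 (osteopontin) at 1.23 (0.13) and Krt18 (keratin 18) at 1.017 (0.12).

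Treatment with MitoGamide was compared with its ethanol vehicle to ask whether the drug changed these genes. In Akita mice, none of the 10 genes passed the adjusted threshold with edgeR's test, whereas 1.26% of the 17051 genes tested were called. An unadjusted p under 0.05 was found for 3 of the 10 and for 3564 of the 17051 genes tested. DESeq2 called 2 of the 10 and gave no adjusted p for Cdkn1a and Trp53inp1. Bax was lower on MitoGamide, at 10.7, 11.7, 10.7, 9.87 and 9.58 CPM against 13.99, 13.2, 12.6, 15.8 and 13.96 on ethanol, or -0.40 on the log2 scale (standard error 0.09, adjusted p = 0.0540 by edgeR and 0.00855 by DESeq2). Every mouse on MitoGamide was below every mouse on the vehicle. Ccng1 was at 249, 296, 250.8, 255 and 239 CPM against 210.2, 209.8, 188, 180.0 and 218, or 0.37 on the log2 scale (0.09, adjusted p = 0.0566 by edgeR and 0.00198 by DESeq2). These were the 2 genes of the 10 whose groups did not overlap, which held for 7.49% of all genes. Without Akita mouse 5 on MitoGamide, edgeR called both, Ccng1 with an adjusted p of 0.0225 and Bax with 0.0388, and 4.67% of the 17160 genes tested were then called.

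The other 8 genes had log2 fold changes with MitoGamide in Akita mice from -0.11 (Zmat3, standard error 0.10) to 0.96 (Trp53inp1, 0.46). Eda2r was at 0.42 (0.20, adjusted p = 0.255 by edgeR) and Mdm2 at 0.28 (0.09, adjusted p = 0.126). For Cdkn1a and Trp53inp1, the changes of 0.93 (0.47) and 0.96 became 0.10 and 0.06 without replicate 5, and that of Sesn2 went from 0.12 to -0.55. Of 13 genes of the BCL2 family and caspases, 1 was called, Cycs (cytochrome c), which was higher by 0.58 (0.11, adjusted p = 0.0407 by edgeR). No gene of the other lists of p53 regulators, other p53 targets (median 0.20, against -0.0021 for all genes) or EDA signalling was called. Summed endothelial markers were at 333 to 530.1 CPM on MitoGamide and 260.2 to 307 on ethanol, without overlap (two-sided exact permutation test, p = 0.00794, the smallest that 5 against 5 mice can give, and 0.110 adjusted over 180 comparisons). Summed fibroblast and pericyte markers were at 139 to 202 CPM against 111 to 133, also without overlap and with the same p-values. Mitochondrial transcripts took 28.0 to 35.4% of the counts on MitoGamide and 21.6 to 28.7% on ethanol (exact permutation p = 0.0159, 0.143 adjusted). The part of these shifts in the levels of the 10 genes was not tested.

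In WT mice, Eda2r had a mean under 10 counts over the libraries compared and was not tested. None of the other 9 genes was called by edgeR or DESeq2 with MitoGamide in WT mice. With edgeR, 2 of them had an unadjusted p under 0.05, as did 1841 of the 17395 genes tested. No gene of the 17395 tested was called by edgeR (0%). The value for Cdkn1a was -0.73 on the log2 scale (standard error 0.24, adjusted p = 0.327 by edgeR). Its WT mice on MitoGamide, at 2.87 to 5.95 CPM, overlapped those on ethanol, at 4.43 to 9.02 CPM. Mitochondrial transcripts took 24.6 to 27.8% of the counts in WT mice on MitoGamide and 20.1 to 22.6% on ethanol, without overlap (exact permutation p = 0.00794, 0.110 adjusted), and their part in these values was not tested. The MitoGamide effect in Akita mice minus that in WT mice was 1.66 (0.60) for Cdkn1a and 0.98 (0.34) for Eda2r on the log2 scale, with adjusted p-values of 0.582 and 0.571 by edgeR, and no gene was called (0% of 17256). Without replicate 5 of the Akita mice, the difference for Cdkn1a was 0.85.

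**Figure D4:**
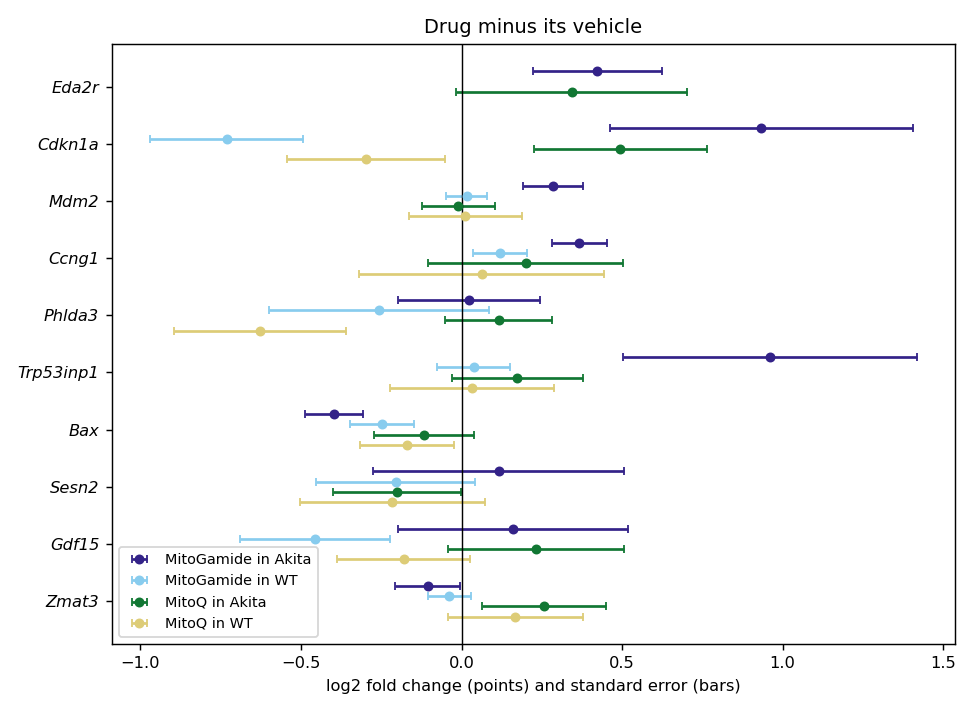
Log2 fold change of MitoGamide against the ethanol vehicle and of MitoQ against water for the 10 genes, in Akita and WT mice, from edgeR (points), with standard errors (bars). Eda2r was not tested in WT mice; Cdkn1a and Trp53inp1 in Akita mice on MitoGamide, at 0.93 and 0.96, have the widest bars, and none of the points passed an adjusted p of 0.05.

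MitoQ was compared with water in the same way. None of the 10 genes was called in Akita mice by edgeR or DESeq2, and edgeR called 0 of 18496 genes (0%). With edgeR, 0 of the 10 had an unadjusted p under 0.05, against 363 of the 18496 genes tested. Log2 fold changes ranged from -0.20 (Sesn2, standard error 0.20) to 0.49 (Cdkn1a, 0.27), with 0.34 (0.36) for Eda2r. In WT mice, none of the 9 genes tested was called by edgeR or DESeq2 (0% of 17881 genes with edgeR). Among these 9, Phlda3 had the single unadjusted p under 0.05, at -0.63 on the log2 scale (0.27, adjusted p = 1.00 by edgeR). Over all 17881 genes tested, 575 had an unadjusted p under 0.05. With standard errors of 0.11 to 0.38 in these 2 comparisons, small changes were not detectable.

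The vehicles themselves were also compared. In Akita mice, Mdm2 was lower on ethanol than on water, with 31.8, 33.1, 30.2, 32.4 and 34.8 CPM against 38.4, 42.8, 45.9, 36.0 and 42.1 CPM, without overlap. The change was -0.32 on the log2 scale (standard error 0.10, adjusted p = 0.0464 by edgeR). Of the 17928 genes tested, 9.07% were called lower on ethanol and 6.24% were lower without overlap. This call was lost when any 1 of 8 of the 10 libraries was left out, and without the libraries dominated by 10 genes, where the adjusted p was 0.310 with edgeR. Eda2r was at 0.62 (0.21, adjusted p = 0.0663) and Trp53inp1 at 0.58 (0.19, adjusted p = 0.0589) by edgeR, and DESeq2 called both. In WT mice none of 9 genes was called by edgeR or DESeq2, but 3 were called by edgeR without WT water replicate 5 (Ccng1, Trp53inp1 and Zmat3, with log2 fold changes of 0.97, 0.67 and 0.46, chosen after their values were seen). In that fit 28.6% of the 18225 genes tested were called. The genotype difference on ethanol did not differ by the test from that on water for any of the 10 (0% of 18050 genes called by edgeR). An unadjusted p under 0.05 was found for 1 of the 10, and for 767 of the 18050 genes. The change between these differences was -0.66 (0.36) for Eda2r. Summed distal convoluted tubule markers were at 819 to 962 CPM in Akita mice on ethanol and 1029 to 1834 CPM on water, and olfactory receptor genes at 420.1 to 587 against 604 to 1077 CPM, both without overlap (exact permutation p = 0.00794, 0.110 adjusted over 180 comparisons). Mitochondrial transcripts took 21.6 to 28.7% of the counts on ethanol and 24.2 to 43.1% on water (exact permutation p = 0.0397, 0.230 adjusted). The part of these shifts in the level of Mdm2 was not tested. Water and ethanol mice belong to separate arms, and the part of the dominated libraries in these values was not tested beyond leaving them out.

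Within the 5 Akita mice on MitoGamide, the genes did not move as 1 block. Replicate 5 was at 57.1 CPM for Cdkn1a, 351 for Trp53inp1 and 112 for Sesn2, each more than 3 times the highest of the other 4. In the same mouse Eda2r (4.21 CPM), Ccng1 (239 CPM) and Zmat3 (39.2 CPM) lay within or next to the range of the others. Mdm2 (49.6 CPM) was the highest of the group, and Phlda3 (2.48 CPM), Gdf15 (2.48 CPM) and Bax (9.58 CPM) were the lowest. Over all genes tested there, 3.96% were over 2-fold higher and 3.50% over 2-fold lower in replicate 5 than the median of the other 4, against 0.232% to 0.667% and 0.373% to 0.985% in those 4 mice.

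**Figure D5:**
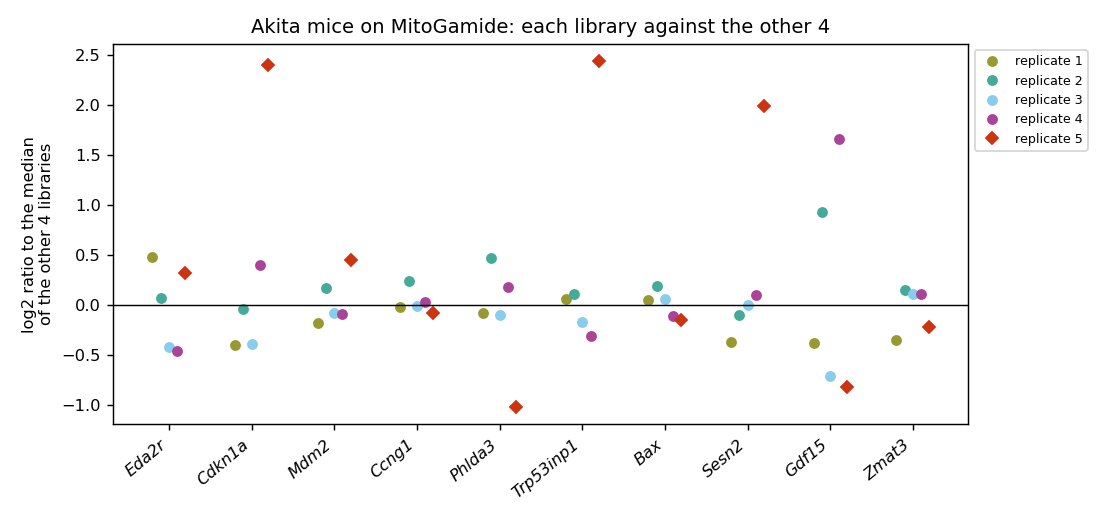
Log2 ratio of each Akita library on MitoGamide to the median of the other 4, for the 10 genes. Replicate 5 (red diamonds) lies far above the others for Cdkn1a, Trp53inp1 and Sesn2 and below them for Phlda3.

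The deviations of single mice from their group means were compared between genes, as a description over 40 libraries that share depth and scaling. Ccng1 and Zmat3 had the highest correlation (Pearson r = 0.908). Eda2r had r = 0.598 with Ccng1, 0.558 with Zmat3, 0.367 with Bax, 0.358 with Trp53inp1, 0.210 with Cdkn1a, 0.161 with Phlda3, 0.133 with Gdf15, -0.127 with Mdm2 and -0.163 with Sesn2, the last of which was -0.298 without Akita mouse 5 on MitoGamide. Cdkn1a and Trp53inp1 had r = 0.717, and 0.411 without Akita mouse 5 on MitoGamide. Without that mouse, r of Trp53inp1 rose from 0.494 to 0.859 with Ccng1 and from 0.407 to 0.776 with Zmat3. Mdm2 was negative with Ccng1 (-0.463) and Zmat3 (-0.441).

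Over all 40 libraries, with the difference between genotypes included, Zmat3 was the 12th of 11148 genes in its correlation with Eda2r (r = 0.853), and Cdkn1a (0.793), Phlda3 (0.776) and Ccng1 (0.744) followed among the 10. Sesn2 was on the negative side (-0.273). The 5 genes with the highest r were Kynu (0.908), Tmem43 (0.893), Aldh1a7 (0.889), Sulf2 (0.888) and Mgmt (0.884), and the 3 with the lowest were Cntnap5a (-0.910), Ttbk1 (-0.905) and Ubr2 (-0.887). Kynu, which encodes kynureninase of tryptophan breakdown, reached 38.5 ± 5.42 CPM in the Akita group on ethanol and 6.54 ± 1.47 CPM in the WT group (SD, n = 5). Within groups, Nmd3 (0.671), Hccs (0.665), Pigf (0.662), Chuk (0.656) and Commd3 (0.649) had the highest r with Eda2r. With rank correlation, 2 of the first 5 genes were shared with either list.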

How the data were processed

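RNA of the kidney cortex of 40 mice was sequenced after depletion of ribosomal RNA with a kit that keeps the strand. After quality trimming with Skewer, the authors assigned reads to GENCODE mouse release 25 transcripts (GRCm38) using kallisto 0.46.1, with sums per gene made in R 4.0.2. The deposited values are estimated counts as whole numbers, unscaled and per animal. Whether kallisto was run with a strand setting is not given in the sources used here.

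The members, gene lists and tests were chosen with earlier results of these data known. For each contrast, the libraries of its groups were fitted in R 4.3.3 with edgeR 4.0.16 (TMM normalization, quasi-likelihood test). Genes needed 10 counts on average, and a Benjamini-Hochberg adjusted p under 0.05 over all tested genes was a call. Contrasts of the same arm share libraries: the Akita mice on ethanol enter both the genotype and the MitoGamide contrast. Levels are CPM after TMM over the 40 libraries. Standard errors were derived from the log2 fold change and the F statistic. Single values per library were compared with two-sided exact permutation tests.

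The genes named are the 10 members, Eda, Edar, Trp53 and Mdm4, at most 2 called genes with the smallest p from each list for the genotype contrast over the 4 treatments and each drug contrast, and the genes most and least like Eda2r among those with a mean of at least 50 counts. Cell type markers and overlapping gene models are named besides these. So are Depp1 and the genes most like Sesn2, which were taken up after the values were seen. Of 55401 identifiers, 99.5% were found in GENCODE mouse release 21, and Ddit3, with 2 identifiers, was left out. A gene of the senescence list that the rule names is not reported here. Alternatives were DESeq2 1.42.0, a shared fit of the 40 libraries, RLE normalization, a block for the replicate number, testing without the filter or with 10 counts demanded of each library, each library left out in turn and, added after the data were seen, leaving out libraries whose 10 most counted genes held over 40% of the counts. On simulated counts for Akita against WT mice on ethanol (17741 genes tested), 66% of 200 genes changed by 1 on the log2 scale were recovered, 6.38% of the called genes had not been changed, and without change 0 genes were called.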

Additional observations from a re-analysis of the deposited data

Results flagged for a closer look

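Single mice stood far from the other 4 of their group (gap to the nearest over the range above 0.71, Dixon's 95% value for 5 samples) in 12 of the 80 combinations of gene and group, and chance gives about 4. Their part in the results was not tested beyond leaving each library out. Akita mouse 5 on MitoGamide was far above its group for Cdkn1a (57.1 CPM), Trp53inp1 (351 CPM) and Sesn2 (112 CPM), and mouse 2 of that group for Ccng1 (296 CPM). Cdkn1a was also high in Akita mouse 4 on ethanol (16.3 CPM) and in WT mouse 5 on MitoGamide (5.95 CPM), which was high for Phlda3 too (3.61 CPM). Sesn2 was high in WT mouse 3 on ethanol (99.2 CPM), WT mouse 2 on water (86.7 CPM) and Akita mouse 4 on MitoQ (38.3 CPM). Eda2r was high in WT mouse 1 on ethanol (0.831 CPM, 13 counts) and in WT mouse 4 on MitoQ (0.646 CPM, 8 counts).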

How the results depend on the processing

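The number of the 10 genes called was the same, or within 1.5 times, under the alternatives tried, with the exceptions that follow; the cause was not tested unless given. For Akita against WT mice on ethanol (6 genes), all 40 libraries in one fit gave 3, without calls for Cdkn1a, Ccng1 and Trp53inp1. On water (1 gene), DESeq2 gave 3, all 40 libraries in one fit 2 and the demand for 10 counts in every library 0, since Eda2r does not pass that filter. On MitoQ (3 genes), DESeq2 gave 5, all 40 libraries 5 and 10 counts in every library 1. Neither Eda2r nor Phlda3 passes that filter there, with lowest counts of 1 and 5 in WT mice. For MitoGamide in Akita mice (0 genes), DESeq2 gave 2 and 10 counts in every library 1, and leaving out single libraries gave 0 to 2. For ethanol against water in Akita mice (1 gene), DESeq2 gave 3, and RLE normalization, no filter, all 40 libraries and leaving out the libraries dominated by 10 genes each gave 0, with 0 to 4 when single libraries were left out. In WT mice (0 genes) leaving out single libraries gave 0 to 3. In the remaining contrasts, leaving out single libraries changed no count by over 1.5 times.

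The replicate numbers were not taken as pairs, since in no contrast were all 5 same-numbered pairs correlated above 0.1 in their deviations from group means. Some pairs were: 3 of 5 for MitoQ against water in Akita mice (highest r = 0.655) and 3 of 5 for genotype on water (highest r = 0.459). For MitoQ against water in WT mice it was 2 of 5 (highest r = 0.587). This check cannot tell whether only some same-numbered mice shared a factor. With a replicate block, 1 gene was called for genotype on MitoQ (3 without it, with the calls of Eda2r and Phlda3 lost) and 0 for ethanol against water in Akita mice (1 without it). Over all genes, the block left 0 calls for MitoGamide in Akita mice (214 without it).

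Over all genes, the calls for genotype on ethanol were 2910 and 873 with all 40 libraries, those for genotype on water 101 and between 32 and 543, those on MitoQ 101 and between 48 and 415, and those for MitoGamide in Akita mice 214 and between 0 and 1069. DESeq2 called 74 genes for MitoGamide in WT mice, where edgeR called 0, and MitoQ had 0 calls and up to 12 in Akita and 27 in WT mice. For ethanol against water they were 2283 and between 0 and 4264 in Akita mice, and 0 and up to 1570 in WT mice. With single libraries left out, the calls ranged from 1 to 6496 in Akita mice and from 0 to 5216 in WT mice for ethanol against water, and from 0 to 802 for MitoGamide in Akita mice. For genotype they ranged from 1248 (without WT mouse 2) to 2822 on MitoGamide (2386 with all), from 32 (without Akita mouse 4) to 94 on water, and from 35 (without Akita mouse 5) to 270 (without WT mouse 3) on MitoQ. For single genes, 11 of 1160 values lost a call and 25 gained one under the other settings, as did 20 and 44 of 2570 with 1 library left out. No called value changed sign, but 57 and 148 uncalled values did. For likeness to Eda2r, rank correlation kept 2 of the first 5 genes, and 2 of 5 within groups. WT libraries held 1 to 14 counts of Eda2r, which did not pass the filter on mean counts in the comparisons within WT mice.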

Other observations

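Sesn2 varied between mice of a group along with genes outside the p53 lists, a pattern chosen after the values were seen. Over the deviations of the 40 libraries from their group means, its highest correlations among 11148 genes were with Igfbp1 (r = 0.849), which encodes an insulin-regulated binding protein of the IGFs, Fosl2 (0.830), G6pc (0.830), the glucose-6-phosphatase of gluconeogenesis, Rin2 (0.820) and Tmem252 (0.817). Without Akita mouse 5 on MitoGamide, these were 0.760, 0.701, 0.771, 0.687 and 0.768. In Akita mouse 5 on MitoGamide, Igfbp1 was at 131 CPM, against 2.33 to 6.60 CPM in the other 4 mice, and Depp1, a target of FOXO factors, at 223 CPM against 2.54 to 6.62. In WT mouse 3 on ethanol, Igfbp1 was at 15.2 CPM (2.02 to 7.23 in the other 4) and Depp1 at 44.3 CPM (4.03 to 16.7). In WT mouse 2 on water, Igfbp1 was at 27.2 CPM (1.90 to 4.08 in the other 4) and Depp1 at 56.1 CPM (3.67 to 10.9). In Akita mouse 4 on water, Depp1 was at 119.8 CPM (2.38 to 14.7 in the other 4) and Igfbp1 at 19.6 CPM (2.20 to 7.502), and Sesn2 was at 49.3 CPM against 23.8 to 41.3 CPM, a smaller gap than in the other 3 mice. In the first 3 of these mice Eda2r was at 4.21, 0.559 and 0.187 CPM, within the range of its group each time. The highest Sesn2 of a group did not always go with both genes. In Akita mouse 3 on ethanol (Sesn2 57.1 CPM), Igfbp1 was at 10.1 CPM, within its group's range, whereas Depp1 was the highest of the group (31.7 CPM, next 24.1). In WT mouse 3 on MitoGamide (64.2 CPM), Igfbp1 was also within range, at 6.56 CPM, and Depp1 was again the highest (20.7 CPM, next 17.5). In WT mouse 2 on MitoQ (51.2 CPM), Igfbp1 (6.50 CPM) and Depp1 (6.08 CPM) were within range. In Akita mouse 4 on MitoQ (38.3 CPM), Igfbp1 (7.73 CPM) and Depp1 (29.0 CPM) were the highest of the group.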
